A study of Labrus bergylta with 25 samples.

Results

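The comparison of a cellulose bolus with an empty gut covered 13 of the 25 libraries of the series, 7 from intestines filled with cellulose and 6 from empty intestines, taken by the treatment named in their labels. RNA was sequenced from the bulbous (Segment 1), the widened front of the intestine in the ballan wrasse (Labrus bergylta), a fish without a stomach. Each intestine was removed whole from a farmed juvenile that had been fasted, flushed, mounted in oxygenated Ringer's solution at 14 °C and incubated for 60 min, in both groups alike. All fish were labelled female. The cellulose group received a single bolus that mimicked a meal of 0.1% of body weight, made of microcrystalline cellulose in water with a little Brilliant Blue dye. The empty group received none. Filling, water and dye therefore came together and cannot be told apart. The remaining 12 libraries were 6 with hydrolyzed protein and 6 with hydrolyzed lipid. They entered here in the choice of genes tested, in the mean value and the spread of each gene, and as values set side by side.

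A bolus without nutrients can act on the gut wall by its volume. In vertebrates, distension of the lumen is sensed by enteric neurons, smooth muscle cells and cells of the epithelium through ion channels that open under tension, and it starts the peristaltic reflex, in which the muscle contracts behind the bolus and relaxes ahead of it. Much of this reflex runs on ion currents and transmitter release, which need no new RNA, while genes of the early response are transcribed within the first hour in many stretched tissues. The study set cellulose against the empty intestine to see the effect of stretch on the transcriptome without that of nutrients.

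The authors deposited normalized values of 20208 genes per library, each a read count divided by a size factor of that library. The genes carry identifiers of a genome annotation that none of the tables used here pairs with names, and 0 of the identifiers were found in the reference gene table of this species. Genes are therefore described by level, by spread and by counts, with 2 identifiers given in each direction. Neither the pathways nor the cell types of Segment 1 were analysed here. The tissue pieces held the whole gut wall, so fewer cells of a type and less RNA per cell cannot be told apart. Reads recovered from the values ranged from 10160088 to 19732023 per library with cellulose and from 11079610 to 16428546 in 5 empty libraries. Reads of empty library 19 were not used. A rule chosen here set aside libraries in which 1 read was worth close to 1 in the values. Within groups, 31 pairs of libraries were compared by their reads. The closest pair still had a chi-square per degree of freedom of 25.9, where sampling noise alone gives about 1. None of these 12 was therefore a copy of another in its group, and pairs across groups were not compared in this way.

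Of the 13 libraries, 2 from empty intestines stood apart, numbers 19 and 30 in the labels. Library 30 had 1003 genes listed at 0 and library 19 had 803, against 91 to 239 in the other empty libraries. With cellulose, library 27 had 659 genes at 0 and the others had 91 to 274. The distance of a library from the mean of the rest of its group, as a root mean square over genes on the log2 scale, was 0.969 for library 19 and 0.963 for library 30, and 0.688 to 0.798 for the other empty libraries. For cellulose it was 0.838 for library 27 and 0.619 to 0.748 for the others. Libraries 19, 30 and 27 were therefore the 3 with the most genes at 0 and also the 3 farthest from their group. The depth of libraries 30 and 27, with 13885582 and 12752768 reads, lay within that of the other libraries.

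**Figure D1:**
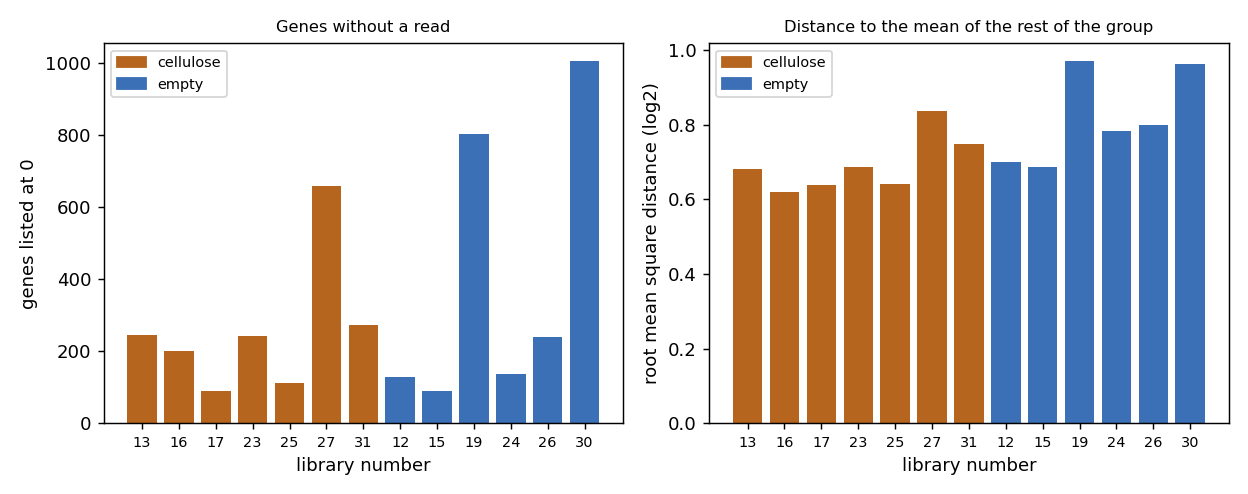
Genes listed at 0 (left) and root mean square distance on the log2 scale from the mean of the other libraries of the group (right), for each of the 13 libraries by its number, with cellulose in brown and empty in blue. Empty libraries 19 and 30 have 803 and 1003 genes at 0 and the largest distances, and cellulose library 27 has 659.

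The 2 groups were not separated along the main axes of variation. The first 3 principal components of the 13 libraries, over the 19033 genes that exceeded 10 in 5 or more of the 25 libraries, held 15.6%, 13.5% and 11.6% of the variance. On the first, the mean score was -12.3 ± 15.4 (SD, n = 7) with cellulose and 14.4 ± 52.2 (SD, n = 6) in empty intestines. This difference was smaller than the spread of the empty libraries (two-sided exact permutation test over all regroupings, p = 0.298, adjusted over 3 components p = 0.501). The scores of empty libraries 19 and 30 on it were 74.5 and 87.5, and those of the other empty libraries ran from -27.5 to -10.7, inside the range of -37.6 to 9.82 for cellulose. The groups also overlapped on the second component (exact permutation test, p = 0.477, adjusted p = 0.501) and on the third (exact permutation test, p = 0.501, adjusted p = 0.501). Correlations of log2 values across genes between pairs of libraries, which share 1 scaling and filter, had a median of 0.941 over 21 pairs within cellulose, 0.919 over 15 pairs within empty and 0.933 over 42 pairs across the groups. Without libraries 19 and 30 the medians were 0.937 over 6 pairs within empty and 0.938 over 28 pairs across the groups.

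Spread within a group was wider in empty intestines. The SD of a gene on the log2 scale had a median of 0.34 with cellulose (quartiles 0.22 and 0.58) and 0.42 in empty intestines (quartiles 0.26 and 0.71). As factors between libraries these medians correspond to 1.27-fold and 1.33-fold. The SD was larger in the empty group for 12437 of the 19033 genes, or 65.3%. Without libraries 19 and 30, which were picked out for their distance, the empty median was 0.35 and the share was 50.2%. This empty SD rests on 4 libraries against 7 with cellulose, and the median SD of fewer values comes out lower. A share of 50.2% therefore need not mean equal spread. With cellulose library 27 left out as well, the cellulose median was 0.32 and the share 53.8%. Taking out library 19 alone gave 58.3% and library 30 alone 61.2%. Tested over libraries, the distance from the rest of the group averaged 0.693 ± 0.0767 (SD, n = 7) with cellulose and 0.817 ± 0.123 (SD, n = 6) in empty intestines. This difference did not pass after adjustment over 4 measures (two-sided permutation test over all regroupings, p = 0.0478, adjusted p = 0.0956). The mean of the rest is taken over 1 library fewer in the empty group, which raises its distances a little. Distances within a group also share libraries, and libraries 19 and 30 enter those of the other empty libraries. Distances were not computed anew for each regrouping, so the test is not exact for them and its p-values are only a rough guide. The difference, cellulose minus empty, was -0.124. Without libraries 19 and 30 it was -0.0554 (permutation test, adjusted p = 0.367). Without cellulose library 27, empty library 12 or empty library 15 its adjusted p was from 0.0227 to 0.0346 (permutation test). With any other of the 13 libraries left out, the adjusted p was from 0.0505 to 0.264 (permutation test).

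Across the genes tested, differences between the groups were small. The log2 change, cellulose minus empty, had a median of 0.0057 and lay between -0.15 and 0.17 for the middle 50% of genes and between -0.53 and 0.64 for the middle 90%. The median size of the change was 0.16, which was below the median SD of either group. In 1138 genes, or 5.98%, it exceeded the SD of both groups. Since each library was divided by its own size factor, a change in the total amount of RNA would not appear in these values.

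Fitted changes of more than 2-fold were found in 621 genes, 3.26% of those tested, with 341 higher and 280 lower with cellulose. They lay mainly among genes with few reads. Of the 621 genes, 498 had a mean value of up to 100 and 36 a mean value above 500, and 331 were at 0 in at least 1 of the 13 libraries. Only 78 of them had an unadjusted p under 0.01. The direction of such changes leaned on the 2 empty libraries that stood apart. Without libraries 19 and 30, 697 genes were over 2-fold, of which 315 were higher and 382 lower, and 162 of the 341 higher genes and 217 of the 280 lower ones were still over 2-fold in the same direction.

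At a p under 0.01, the threshold named in the study and taken here without adjustment, 175 genes differed between cellulose and empty intestines, 0.919% of the genes tested. Of these, 105 were higher with cellulose (0.552%) and 70 lower (0.368%). For comparison, 1% of the genes tested is 190 genes. The count lay on either side of this figure depending on the method, with 262 genes for DESeq2, 197 for voom and 168 for edgeR on 23 libraries, and 234 for limma with 1 surrogate variable. At an unadjusted p under 0.05 there were 986 genes, or 5.18%, against 952 for 5%. After Benjamini-Hochberg adjustment of the limma p-values, 0 genes (0%) were under 0.05, and the smallest adjusted p was 0.145. The other tools, run on 23 libraries, gave 0 genes at an adjusted p under 0.05 with edgeR and with voom, and 7 with DESeq2, where they had 978, 1112 and 1076 genes at an unadjusted p under 0.05. The p-values were spread almost evenly from 0 to 1, and the estimate of limma for the share of genes without a difference was 97.9%.

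**Figure D2:**
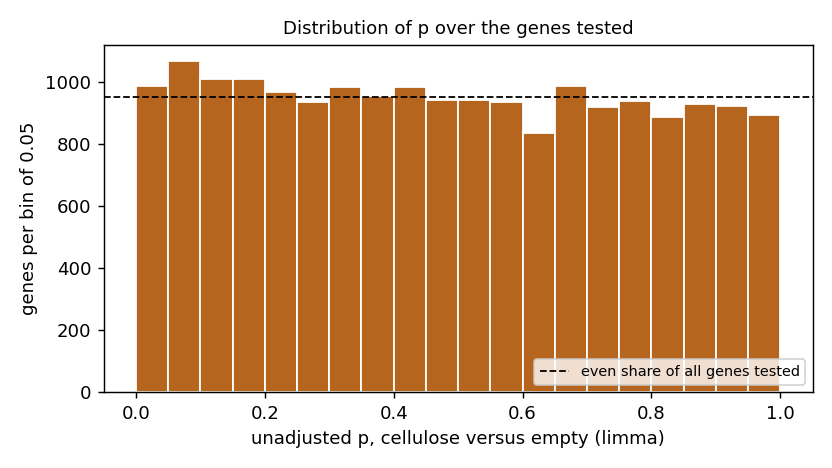
Number of genes in each bin of 0.05 of the unadjusted p for cellulose versus empty (limma, 19033 genes), with the even share per bin as a dashed line. The first bin holds 986 genes and the line stands at 952.

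Of the 7 genes DESeq2 called, 2 were higher and 5 lower with cellulose. Of the 4 genes given by identifier, 3 were among them. The smallest adjusted p of the 7 was 6.01e-06 with DESeq2, in a gene not given by identifier. With edgeR on the same libraries their smallest adjusted p was 0.233, and with limma on all libraries 0.145. An unadjusted limma p under 0.01 was found in 4 of the 7. Values of the 2 groups did not overlap in 2 of the 7. In the median gene of the 7, a single library held 45.2% of the sum over the 13 libraries.

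Of the 175 genes, 97 had a mean value of up to 100, 52 lay from 100 to 500, 22 from 500 to 2000 and 4 above 2000. Their changes ran from 0.24 to 4.85 in size on the log2 scale, with a median of 0.85. The change was under 1.5-fold in 54 of them, from 1.5-fold to 2-fold in 43 and above 2-fold in 78, of which 37 were higher and 41 lower. Among these 78, 63 had a mean value of up to 100 and 3 a mean value above 500. The share of genes with a p under 0.01 was lower at each higher level, from 1.49% of genes with a mean value of up to 20 to 1.11% of those from 20 to 100, 0.814% from 100 to 500, 0.594% from 500 to 2000 and 0.341% above 2000. Over the 175 genes, the near end of the 95% interval had a median of 1.24-fold and the far end a median of 2.59-fold. The near end of the interval lay above 1.5-fold in 32 genes and above 2-fold in 5, as a description, since these genes were chosen by the same p.

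**Figure D3:**
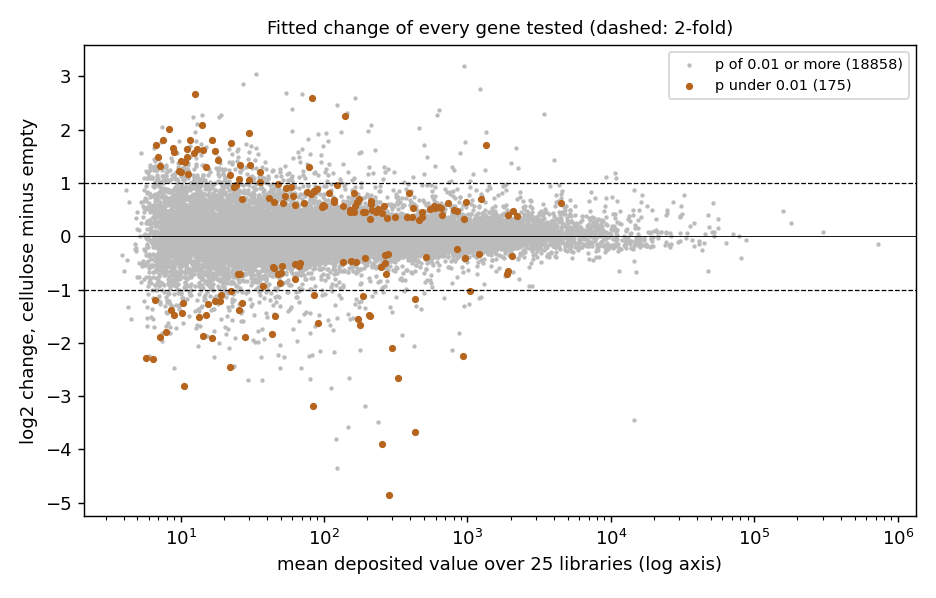
Log2 change, cellulose minus empty, of each of 19033 genes against its mean deposited value over 25 libraries on a log axis, with the 175 genes under an unadjusted p of 0.01 in brown and dashed lines at 2-fold. Changes past the lines lie mainly at low values, and 498 of the 621 genes past them have a mean value of up to 100.

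Membership of the list depended on single libraries. All 175 genes kept their direction in each of the 13 fits that left out 1 library of the 2 groups. This could hardly come out otherwise, since the genes were chosen by their p in the same libraries. In all 13 fits, 46 of the 175 genes kept a p under 0.01. The number of genes was 316 without empty library 15, 294 without empty library 26 and 128 without empty library 30. Without libraries 19 and 30 there were 125 genes, 51 of which were among the 175. All of edgeR, DESeq2 and voom also gave a p under 0.01 for 50 of the 175 genes. The split of 105 higher and 70 lower became 87 and 81 with edgeR, 136 and 126 with DESeq2 and 68 and 57 without libraries 19 and 30.

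Values of the 2 groups did not overlap in 17 genes, 0.0893% of those tested, with 11 higher with cellulose (0.0578%) and 6 lower (0.0315%). The changes of these genes ran from 0.24 to 2.80 on the log2 scale in size, and 8 of them were under 1.5-fold. Of the 17 genes, 8 had an unadjusted p under 0.01, and the other 167 of the 175 genes had overlapping values. No gene of the table was at 0 in all libraries of a group and above 0 in all libraries of the other.

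By identifier, 2 genes are given in each direction, chosen for the smallest p. LABE_00082100-RA had the smallest p of all genes. With cellulose its value was 8.11, 2.83, 2.91, 0.965, 5.13, 0 and 1.39 in libraries 13, 16, 17, 23, 25, 27 and 31. In empty intestines it was 17.7, 15.5, 22.8, 28.9, 19.3 and 30.1 in libraries 12, 15, 19, 24, 26 and 30. Every empty library lay above every cellulose library. It exceeded 10 in every empty library and in no cellulose library, and it met the filter of 5 libraries only through the empty group. Its entry among the genes tested thus leaned on the group where it was high, so its p and the lack of overlap only describe it. Without the filter its adjusted p was 0.104 (limma). These are low values, as they rest on 0 to 7 reads with cellulose and on 15 to 31 reads in the 5 empty libraries with recovered reads. The log2 change was -2.80 (standard error 0.50, 95% interval -3.83 to -1.77) on the log2(value + 1) scale, on which changes of low genes come out too small, and it did not pass (limma adjusted p = 0.145). Its adjusted p was 0.0426 with limma without cellulose library 13 and 0.0203 with DESeq2 on 23 libraries, and 0.626 with edgeR, and over all alternatives it ran from 0.0203 to 0.925. Side by side, its value ran from 2.88 to 13.8 (median 4.53) with protein and from 2.45 to 33.3 (median 10.05) with lipid.

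LABE_00006972-RA was the gene with the smallest p among those higher with cellulose. With cellulose its value was 631, 615, 607, 636, 741, 660 and 639 in libraries 13, 16, 17, 23, 25, 27 and 31. In empty intestines it was 494, 454, 414, 491, 414 and 436 in libraries 12, 15, 19, 24, 26 and 30. The groups did not overlap, and both were narrow, with an SD of 0.10 with cellulose and 0.11 in empty intestines on the log2 scale. The gene was chosen for its p in these libraries, so the lack of overlap, the SDs and the interval below only describe it. The difference amounted to 1.44-fold (95% interval 1.23 to 1.68), a log2 change of 0.52 with a standard error of 0.11 (limma adjusted p = 0.62). With DESeq2 on 23 libraries its adjusted p was 0.0489, and the alternatives ran from there to 0.991 with limma without empty library 30. Side by side, its value ran from 519 to 775 (median 601) with protein and from 486 to 796 (median 597) with lipid. Both ranges took in all the cellulose values, every protein library lay above every empty library, and the lowest lipid library lay below the highest empty one. These comparisons share the cellulose and empty libraries in which the gene was chosen.

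LABE_00025806-RA was the second gene lower with cellulose. With cellulose its value was 277, 130, 264, 246, 136, 109 and 142 in libraries 13, 16, 17, 23, 25, 27 and 31. In empty intestines it was 455, 317, 351, 962, 307 and 262 in libraries 12, 15, 19, 24, 26 and 30. Empty library 30 lay below the 2 highest cellulose libraries, and empty library 24 lay far above all others. The log2 change was -1.18 (standard error 0.28, limma adjusted p = 0.924), and -0.92 without empty library 24. Its adjusted p over the alternatives ran from 0.0489 with DESeq2 to 0.9998 with limma without empty library 24. Its value ran from 321 to 677 (median 610) with protein and from 394 to 981 (median 519) with lipid. Every library of these 2 nutrient groups lay above every cellulose library, so cellulose had the lowest median of the 4 groups, 142 against 334 in empty intestines. All these comparisons share the cellulose libraries.

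LABE_00063762-RA was the second gene higher with cellulose. With cellulose its value was 45.2, 31.1, 27.6, 71.4, 27.8, 65.4 and 40.4 in libraries 13, 16, 17, 23, 25, 27 and 31. In empty intestines it was 20.6, 32.8, 16.8, 19.6, 12.9 and 18.5 in libraries 12, 15, 19, 24, 26 and 30. Empty library 15 lay above 3 cellulose libraries. The log2 change was 1.05 (standard error 0.27, limma adjusted p = 0.924). Its value ran from 19.3 to 38.0 (median 26.6) with protein and from 13.1 to 35.5 (median 24.6) with lipid. Both medians lay between those of empty intestines, 19.02, and cellulose, 40.4.

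**Figure D4:**
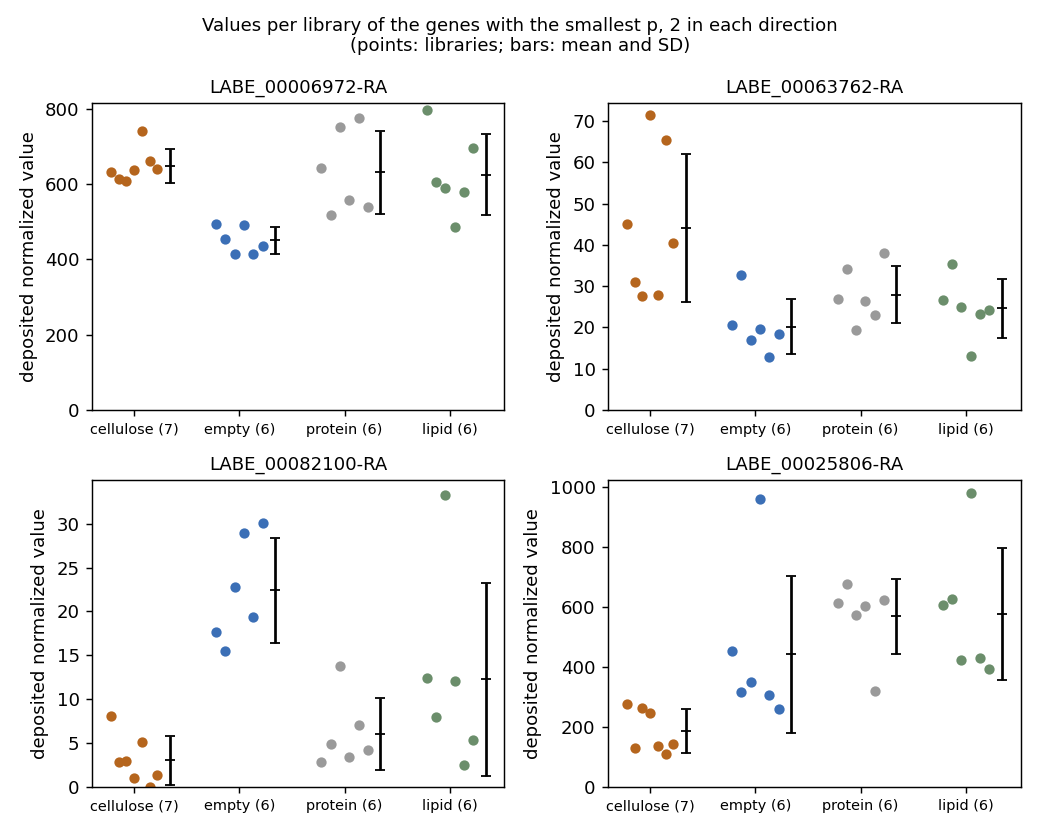
Deposited normalized value in each library of the 4 groups for 4 genes picked by their p in cellulose versus empty, 2 lower and 2 higher with cellulose, with points for libraries and bars for the mean and SD. In LABE_00082100-RA and LABE_00006972-RA cellulose and empty do not overlap, and in the other 2 genes they do.

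The size of change that the data could exclude followed from the standard error of each gene and differed between levels. The standard error of the log2 change had a median of 0.22, so that the 95% interval of the median gene reached 1.37-fold to each side of its estimate, and it reached 1.16-fold or less in the most precise 5% of genes and 2.84-fold or more in the least precise 5%. The 95% interval lay wholly within 2-fold in either direction for 13715 genes (72.1%), within 1.5-fold for 8592 genes (45.1%) and within 4-fold for 17716 genes (93.1%). It reached beyond 4-fold for 1317 genes, of which 606 had a mean value of up to 20. Beside these intervals, 2 one-sided tests from the same limma fit asked whether a change of 2-fold in either direction could be refused. At a Benjamini-Hochberg adjusted p under 0.05, a change of 2-fold or more was excluded for 14230 genes (74.8%), and a change of 1.5-fold or more for 8331 genes (43.8%). This adjustment limits the expected share of wrong exclusions in the whole list to 0.05, not the error for each gene or class of level. For 2-fold it was looser than the 95% interval, with 14230 genes against 13715. It also depends on the genes tested, with 8812 of 13558 genes within 1.5-fold at a mean value of at least 50. These intervals and tests are on the log2(value + 1) scale, on which changes of low genes come out too small. For low genes the bounds therefore do not hold for the fold of the values themselves. The number within 2-fold was 13876 with a pseudocount of 0.1 and 16090 with a pseudocount of 5. With intervals widened to hold for all 19033 genes at once (Bonferroni), 4465 genes (23.5%) were held within 2-fold and 12346 (64.9%) within 4-fold.

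Genes with mean values from 500 to 2000 were held most tightly. A change of 2-fold was excluded at the adjusted threshold for 94.7% of them and a change of 1.5-fold for 77.3%. From 100 to 500 the shares were 90.2% and 61.0%, and from 20 to 100 they were 66.8% and 15.8%. Of the 2821 genes with a mean value of up to 20, a 2-fold change on the log2(value + 1) scale was excluded for 21.6%. A 1.5-fold change on this scale was excluded for 1 gene. Above 2000 the shares were 89.3% and 67.0%, below those of the class before, and the median SD there was 0.23 with cellulose and 0.29 in empty intestines, against 0.21 and 0.26. Genes at 0 in at least 1 of the 13 libraries were almost never held within 2-fold, 4 of 1343, against 80.4% of the 17690 genes above 0 in all 13. Of the 100 most abundant genes, 79 were held within 2-fold and 60 within 1.5-fold, their changes ran from -0.67 to 0.78 on the log2 scale, and 0 had an unadjusted p under 0.01.

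The same standard errors give the fitted change that a gene would have needed to be called. For an unadjusted p of 0.01 the median gene needed 1.53-fold. By level this was 2.67-fold up to 20, 1.77-fold from 20 to 100, 1.40-fold from 100 to 500, 1.31-fold from 500 to 2000 and 1.37-fold above 2000. At this threshold 13984 genes (73.5%) would have passed at a fitted change of 2-fold and 8915 (46.8%) at 1.5-fold. A gene with a true change of that size can be fitted below it and be missed. These are therefore not shares of true changes that would be found. To pass alone among all genes tested (Bonferroni at 0.05), the median gene needed 2.52-fold, and 5972 genes (31.4%) would have passed at a fitted 2-fold. This need was 8.34-fold for the median gene with a mean value of up to 20, 3.44-fold from 20 to 100, 2.08-fold from 100 to 500, 1.78-fold from 500 to 2000 and 1.99-fold above 2000. A fitted 2-fold change thus fell short of both thresholds for the median gene with a mean value of up to 20. It fell short of the Bonferroni threshold alone for the median gene from 20 to 100 and from 100 to 500.

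**Figure D5:**
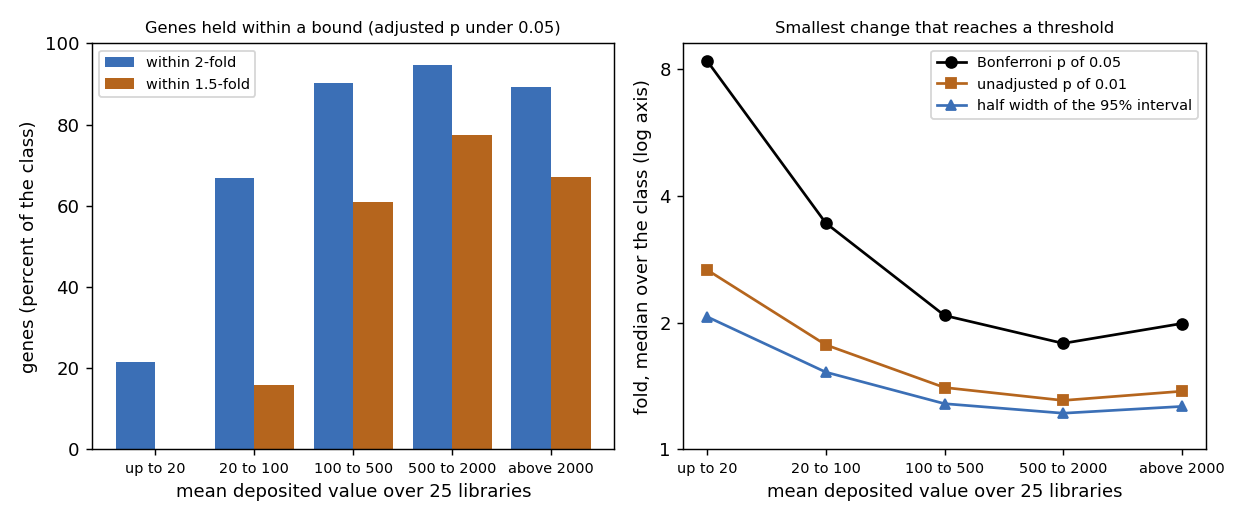
Left, percent of genes in each class of mean deposited value for which a change of 2-fold (blue) or 1.5-fold (brown) was excluded at an adjusted p under 0.05, and right, the median fold on a log axis that the 95% interval spans to each side of the estimate and that a gene needs to reach an unadjusted p of 0.01 or a Bonferroni p of 0.05. From 500 to 2000, 94.7% of genes are held within 2-fold on the log2(value + 1) scale, and up to 20 the share is 21.6%.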

How the data were processed

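Per the labels and the methods of the study, the authors trimmed single-end reads (Trim Galore 0.4.2), aligned them by Hisat2 to a genome assembly of the species, counted per gene by FeatureCounts and used DESeq2 for normalization. The deposited table holds the resulting signal, in which counts were divided by library size factors. The methods name an Ensembl annotation, and the identifiers in the table are of another form. Whole reads were recovered in 23 libraries from what 1 read was worth in the low values (100% of values whole within 0.1 reads). Libraries 19 and 21 were left out of this by a rule chosen here, since their step lies close to 1.

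Limma 3.58.1 in R 4.3.3 (trend and robust moderation) was fitted to log2(value + 1) of 25 libraries in 4 groups, over the 19033 genes that exceeded 10 in 5 or more libraries. Two-sided p-values were adjusted by Benjamini-Hochberg over these genes, and exclusion of a fold used 2 one-sided tests on the same fit. EdgeR 4.0.16, DESeq2 1.42.0 and voom with sample weights were run on the recovered reads, and sva 3.50.0 gave 1 surrogate variable. Further alternatives were pseudocounts of 0.1 and 5, no filter, a filter at a mean of 50, upper quartile or TMM scaling, non-robust moderation, only the 13 libraries, and leaving out each of the 13. Values without libraries 19, 30 and 27 and fits with library weights were chosen after seeing the data. The tests were tested on simulated data with known changes. Principal components were taken of centred log2 values.

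The genes named are the 2 with the smallest p in each direction. The question and these choices were set with earlier results of these data known. Gene lists and cell type markers could not be applied without names. Each library had a number of its own in the labels, so no libraries were paired, and each came from 1 intestine. The limma p-values set the difference between groups against the spread between libraries within the 4 groups. Counting noise and spread between fish were not separated in it.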

Additional observations from a re-analysis of the deposited data

Results flagged for a closer look

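In 3 of 24 sets of values, each 1 measure in 1 group, a library lay farther from the rest than the 95% critical value for its gap over the range of the group. About 1 in 20 is the rate by chance for sets not chosen from the data. The named genes among these sets were chosen by their p in the same data, so this rate is only a rough guide. The number of genes at 0 was 659 in cellulose library 27, and 274 in the library nearest to it, number 31. Cellulose library 25 had a value of 741 for LABE_00006972-RA, against 660 in the next. Empty library 24 had a value of 962 for LABE_00025806-RA, against 455 in the next. Empty libraries 19 and 30, with 803 and 1003 genes at 0, were not marked by this measure, since each has the other as a near neighbour.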

How the results depend on the processing

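The numbers of genes held within 2-fold and within 1.5-fold moved by less than 1.5 times under every alternative for which they were computed, which leaves out edgeR, DESeq2 and voom. The 175 genes at an unadjusted p under 0.01, of 19033 tested, fell to 102 of 13558 tested with a mean value of at least 50. There both the number of genes tested and the share under 0.01 were lower. The number of genes under 0.01 ranged from 128 to 316 when 1 library was left out. At an adjusted p under 0.05 there were from 0 to 1 genes when 1 library was left out, 7 with DESeq2 on 23 libraries, and 0 under the other alternatives. With DESeq2 on 23 libraries, LABE_00082100-RA, LABE_00006972-RA and LABE_00025806-RA passed an adjusted p of 0.05. No named gene changed direction under the alternatives run. These genes were chosen by their p in the same data, so a change of direction was unlikely in advance. No paired analysis was possible because each library carried a number of its own. Differences between cellulose and empty libraries that had not passed a test turned in sign in a few settings, and the cause was not tested. The share of the 100 most abundant genes ranged from -0.648 to 1.03 percentage points when 1 library was left out, and was -1.36 without libraries 19 and 30. Without these 2 libraries the difference in genes at 0 was 112, against -140 with all 13. That on the third component was -35.5, against 12.8. Components were fitted anew in each setting, so a component of the same number can be another axis. A turned sign there need not be a reversal. The third component ranged from -8.37 to 27.8 when 1 library was left out, was -2.16 with a pseudocount of 5 and -11.1 with a mean value of at least 50, where the first component was 7.99. Intervals were widest for genes with a mean value of up to 20, and the parts of counting noise and of spread between fish in this were not tested. Libraries 19, 30 and 27 hold the most genes at 0.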
